A study of Homo sapiens with 5 samples.

Results

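The genes described here encode the plasma membrane and lysosomal amino acid transporters of the solute carrier families SLC1, SLC3, SLC6, SLC7, SLC36, SLC38 and SLC43. Members were all rows of the count table whose symbol belongs to these families, without the cystine exchanger SLC7A11, and whose counts summed to at least 20 over the libraries, which gave 37 genes of the 28278 in the table. The rule itself used no difference between groups, but it was chosen with earlier results of these data known. The cells were HEK293T, an established human embryonic kidney line labelled wild type, grown in high-glucose DMEM with serum. The 3 control libraries came from untreated cells and the 2 ascorbic acid libraries from cells of the same line given ascorbic acid (vitamin C). Treatment lasted 24 h where DNA methylation was assayed or 36 h where RNA methylation was, per the labels, with medium renewed every 6 h. Which of these times applies here, the dose and the handling of the control medium are not stated. Separate cultures are not stated either, so a p-value here covers only how far these libraries vary, and that variation may be technical.

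Amino acid transporters fall into a few working types. Sodium-coupled importers such as the SLC1 glutamate carriers and the SLC6 and SLC38 carriers concentrate amino acids in the cell, obligate exchangers such as ASCT2 and LAT1 trade one amino acid for another, and SLC36 and some SLC38 proteins move amino acids across the lysosomal membrane. The SLC7 light chains reach the cell surface as partners of a glycoprotein heavy chain, CD98 (SLC3A2). Many of these genes are raised by the transcription factor ATF4 when amino acids run short, and the amino acids they import feed the mTORC1 growth pathway.

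The libraries held 35106664 to 57212071 gene counts, and 71.3 to 75.9% of counts from 1 to 10 were even, as when both ends of a pair are counted, so fewer fragments than counts may lie behind a value. The members took 0.227 to 0.234% of all counts in each library. The HEK293 identity was checked on marker genes. Of 6 neural and intermediate filament genes that HEK293 cells express, 5 were at 1 CPM or more (CPM, the usual per-megacount unit, here of TMM-scaled library totals). Of 7 proximal tubule markers only LRP2 was, and the fibroblast, hepatocyte and astrocyte markers were all below 1 CPM.

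In the untreated cells a small number of carriers dominated. Levels were compared between genes as CPM per kilobase of annotated exon (GENCODE release 29 on GRCh38). SLC1A5, the glutamine and neutral amino acid exchanger ASCT2, was highest at 90.7 ± 1.08 CPM per kb (SD, n = 3). SLC38A2 (SNAT2, a sodium-coupled carrier of small neutral amino acids) at 52.7 ± 2.58, the heavy chain SLC3A2 at 51.3 ± 1.43 and its light chain SLC7A5 (LAT1, large neutral amino acids) at 48.1 ± 0.957 CPM per kb followed, of which SLC38A2 and SLC3A2 did not differ beyond their SDs. The creatine carrier SLC6A8 had 35.8 ± 1.12, the cationic amino acid carrier SLC7A1 (CAT1) 33.7 ± 0.464 and the glutamine carrier SLC38A1 (SNAT1) 29.3 ± 1.07 CPM per kb. Next came the glutamate carrier SLC1A3 at 25.7 ± 1.45 and the branched-chain amino acid and proline carrier SLC6A15 at 20.4 ± 0.496 CPM per kb.

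Below these lay 15 genes from 1.43 to 8.77 CPM per kb, among which SLC7A2, SLC7A6, SLC38A9, SLC38A10 and SLC6A6 stood between 7.13 and 8.77. The remaining 13 members were below 1 CPM per kb, down to 0.00719 for the glial glutamate carrier SLC1A2. With the longest transcript as the length, no member moved by more than 2 places in this order. Among the genes of these families with fewer than 20 counts there were 21, of which 10 had 0 counts in every library. They include the glutamate carriers SLC1A6 and SLC1A7, the epithelial carriers SLC6A14, SLC6A18 and SLC6A19, and the heavy chain SLC3A1 (rBAT), which had 3, 2 and 5 counts in the controls against 4 and 5 with ascorbic acid.

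**Figure D1:**
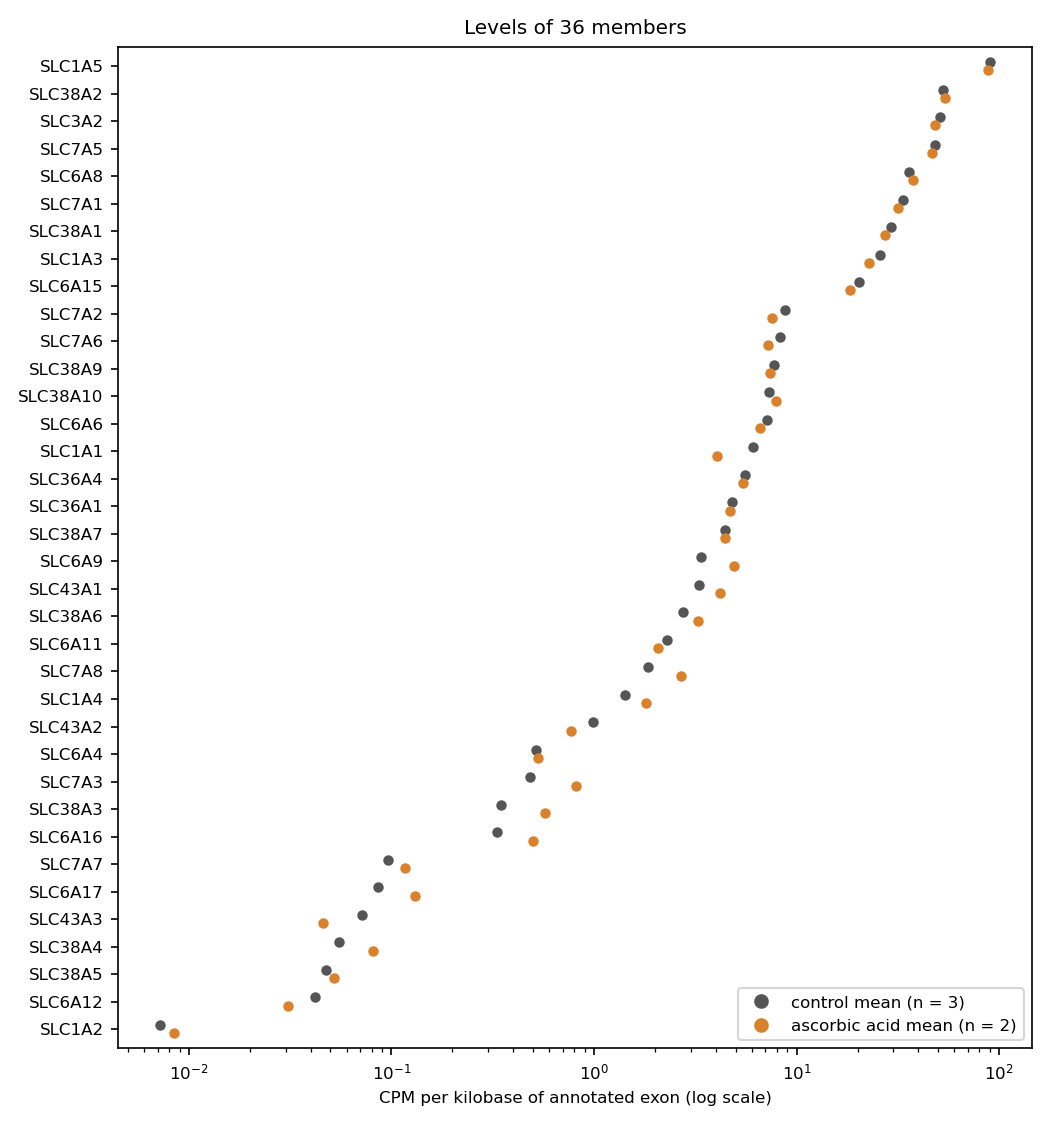
Mean level of 36 members in CPM per kilobase of annotated exon (log axis), ordered by the control mean, with control in grey (3 libraries) and ascorbic acid in orange (2 libraries). The order runs from SLC1A5 at 90.7 to SLC1A2 at 0.00719 CPM per kb, and SLC1A1 is the only gene among the 20 highest whose treated mean lies well to the left of its control mean.

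The comparison of the treated with the untreated libraries asked which transporters differ in level after ascorbic acid. The high-affinity glutamate carrier SLC1A1 was lower with ascorbic acid (0.658-fold). The glycine carrier SLC6A9 and the LAT2 light chain SLC7A8 were higher by about the same factor as each other, 1.46-fold each. The calls of SLC1A1, SLC6A9 and SLC7A8 were kept in all 15 alternative fits. The cationic carrier SLC7A2 was lower (0.859-fold, kept in 14 of 15). The glutamate carrier SLC1A3 was also lower (0.882-fold), but its call was kept in only 10 of 15. Of the 37 members, 33 passed the filter on low counts and were tested. By edgeR's quasi-likelihood test at a Benjamini-Hochberg adjusted p of 0.05 over all genes, 6 rose, 6 fell and 21 did not pass. Among all 15271 genes tested the test called 14.3%, 8.53% higher and 5.76% lower, against 12 of 33 members. The direction of the calls over all genes moved with the scaling and the tool, from 1303 higher and 879 lower to 1712 and 389 with library totals and to 804 and 899 with DESeq2, which called 3 members higher and 5 lower. The median log2 fold change was -0.03 over the tested members and 0.00 over all tested genes. The groups did not overlap in 18 of 33 members and in 43.1% of all tested genes.

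The share called differed with level. The test called 5.37% of the 2402 genes below 1 CPM and 23.1% of the 913 genes at 200 CPM or more. The members that rose had control means of up to 14.8 CPM (median 7.72), and those that fell 8.66 to 165 CPM (median 63.1). In all tested genes the median log2 fold change ran from 0.21 below 1 CPM to -0.07 at 200 CPM or more. It was 0.15 from 1 to 5 CPM, where 2 members rose, and 0.05 from 5 to 20 CPM, where 4 rose and 2 fell. From 50 to 200 CPM it was -0.04, and 4 members fell. At 200 CPM or more 0 of 5 members were called. Apart from the 2 falls from 5 to 20 CPM, called members moved in the direction of this trend, whose part in the result was not tested. The count of 12 was 3 when tested against a fold of 1.2, 5 with cyclic loess scaling and limma, which removes that trend and also changes the test, and 8 with library totals, of which 6 were higher and 2 lower. Without control replicate 1 or control replicate 2 it was 6, and without treated replicate 1 or treated replicate 2 it was 7.

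**Figure D2:**
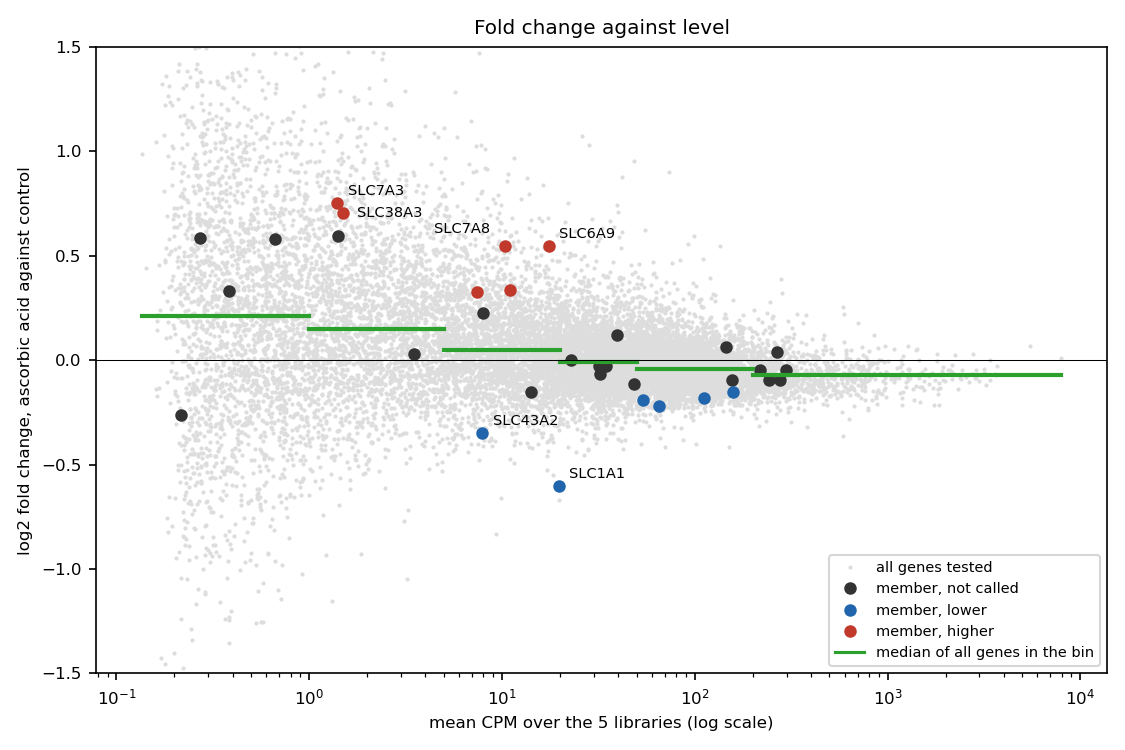
Log2 fold change (ascorbic acid against control) against mean CPM over the 5 libraries (log axis) for all tested genes (grey) and the members (red called higher, blue called lower, black not called), with the median of all genes in each of 6 level bins in green. The members SLC1A1, at -0.60, and SLC6A9 and SLC7A8, at 0.55, lie far from the green median of their bins, and SLC6A15, at -0.15, and SLC1A3, at -0.18, lie nearer to it. The vertical axis leaves out 79 genes beyond 1.5 in either direction.

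SLC1A1 encodes EAAT3, the neuronal and epithelial carrier of glutamate, aspartate and cysteine (chromosome 9, 4490444 to 4587469, plus strand, GRCh38). It stood at 23.5, 23.2 and 21.7 CPM in the controls and 15.3 and 14.8 CPM with ascorbic acid. Both treated libraries lay well below all controls. The log2 fold change was -0.60 ± 0.08 (SE, edgeR adjusted p = 3.53e-06), a fold of 0.658. The call was kept in all 15 alternative fits, with values from -0.64 to -0.56. In bulk libraries such as these, fewer cells of a type and less RNA per cell cannot be told apart. The summed level of the 7 proximal tubule markers, nearly all of it LRP2, with 3 markers at 0, was also lower, 31.0 CPM or more in the controls against 23.9 to 24.1 CPM with ascorbic acid. The 6 HEK293 neural genes summed to 844 to 881 against 923 to 969 CPM, and 4 neuron markers, 2 of them at 1 CPM or more, to 11.1 to 11.9 against 12.1 to 12.2 CPM. The part of these shifts in the transporter results was not tested.

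SLC1A3 encodes EAAT1 (GLAST), the glutamate carrier best known from astrocytes, and in these cells was the most abundant glutamate carrier (chromosome 5, 36606355 to 36688334, plus strand). Its levels were 124, 114 and 112 CPM in the controls against 103 and 104 CPM with ascorbic acid, so the groups did not overlap, but the highest control stood further from the other controls than the lowest control from the treated libraries. The log2 fold change was -0.18 ± 0.05 (edgeR adjusted p = 0.0172). Leaving out control replicate 1 ended the call (-0.13, adjusted p = 0.158), as did leaving out treated replicate 1 (-0.17, 0.0603). It also ended with library totals (-0.14, 0.0702), with cyclic loess scaling (-0.14, 0.0897) and against a fold of 1.2.

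Together the glutamate carriers SLC1A1 and SLC1A3 held 30.6 to 33.7 CPM per kb in the controls against 26.7 and 26.8 CPM per kb with ascorbic acid. SLC1A1 made up 18.7 to 19.9% of that sum in the controls against 15.3 and 14.8% with ascorbic acid, so the pair shifted towards SLC1A3. Their relative SLC1A2 (EAAT2) was too low to test, with 12, 2 and 2 counts in the controls against 10 and 2 with ascorbic acid.

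The ASCT exchangers of the same family take up serine, alanine, cysteine and glutamine. SLC1A4 (ASCT1, chromosome 2, 64988477 to 65023865, plus strand) had 6.96, 6.58 and 6.56 CPM in the controls against 7.75 and 9.12 CPM with ascorbic acid, higher in both. Its log2 fold change of 0.33 ± 0.11 was the weakest of the 12 calls (edgeR adjusted p = 0.0494). It was kept in 5 of 15 alternative fits and ended, among others, with DESeq2 (adjusted p = 0.145), with limma-voom (0.0661), with DESeq2 size factors (0.0509), with cyclic loess scaling (0.192), with the replicate block (0.106), and without control replicate 1 (0.0805), control replicate 2 (0.106), control replicate 3 (0.0790) or treated replicate 2 (0.20, adjusted p = 0.419). SLC1A5 (ASCT2), the most abundant member, had 304, 298 and 304 CPM against 302 and 282 CPM, with overlapping groups and a log2 fold change of -0.05 ± 0.04 (adjusted p = 0.526). It shares 23.4% of its exon length with a transcript annotated on the opposite strand, and the strand setting of the counting is not given in the sources used here.

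The heteromeric transporters pair CD98 with a light chain. SLC3A2, the heavy chain, had 159, 156 and 165 CPM against 158 and 141 CPM, which at -0.09 ± 0.05 did not pass (edgeR adjusted p = 0.221). Without treated replicate 1 it passed (-0.18, adjusted p = 0.0308), since the other treated library was the lowest of all 5. Its partner SLC7A5 (LAT1) had 216, 221 and 225 CPM against 217 and 210 CPM, with overlapping groups (-0.05 ± 0.04, adjusted p = 0.530). SLC7A5 has near-identical pseudogene copies, so reads that fit several copies make its count uncertain, and the listed copy SLC7A5P2 had 21 to 45 counts per library.

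SLC7A8 (LAT2, chromosome 14, 23125295 to 23183674, minus strand), a light chain with a wider range of neutral substrates than LAT1, was higher with ascorbic acid. It had 8.72, 8.89 and 8.61 CPM in the controls against 12.5 and 13.1 CPM with ascorbic acid. The spread within each group was small beside the gap between them. The log2 fold change was 0.55 ± 0.10 (edgeR adjusted p = 0.000191), and the call was kept in all 15 alternative fits (0.48 to 0.59).

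SLC7A6 (y+LAT2, chromosome 16, 68264516 to 68301823, plus strand), which exchanges cationic for neutral amino acids, was lower, with 57.4, 59.0 and 54.3 CPM in the controls against 48.5 and 51.3 CPM with ascorbic acid. Its log2 fold change was -0.19 ± 0.06 (adjusted p = 0.0261), and the call ended without control replicate 1 (-0.18, 0.105), control replicate 2 (-0.16, 0.138) or treated replicate 1 (-0.15, 0.166), with library totals (-0.15, 0.0956), with cyclic loess scaling (-0.17, 0.0641), with the filter of 5 CPM (-0.17, 0.0531) and against a fold of 1.2. SLC7A6 shares 48.9% of its exon length with SLC7A6OS on the opposite strand, whose own value was -0.30 ± 0.12 (adjusted p = 0.0844), so the counts of these 2 genes cannot be told apart with certainty. SLC7A7 (y+LAT1) had 13 to 21 counts per library and did not pass (0.33 ± 0.45).

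The light chains SLC7A5, SLC7A6, SLC7A7 and SLC7A8 were summed, without SLC7A11, so the shares below are of this sum only. SLC7A5 made up 82.0 to 83.3% of the summed CPM per kb in the controls against 82.8 and 81.6% with ascorbic acid. SLC7A8 made up 3.09 to 3.21% in the controls against 4.64 and 4.92% with ascorbic acid. The summed light chains stood at 57.3 to 58.8 CPM per kb in the controls and 57.0 and 56.1 with ascorbic acid, and the heavy chain at up to 52.8 CPM per kb in the controls and 50.7 and 45.3 with ascorbic acid. Within this sum SLC7A8 thus gained share from a small base, while SLC7A5 remained the largest part in all 5 libraries.

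The cationic amino acid transporters carry arginine, lysine and ornithine. SLC7A1 (CAT1), the ubiquitous form, had 247, 254 and 249 CPM in the controls against 236 and 231 CPM with ascorbic acid. The groups did not overlap, yet the log2 fold change of -0.09 ± 0.04 did not pass (edgeR adjusted p = 0.153). SLC7A2 (CAT2, chromosome 8, 17497088 to 17570573, plus strand) fell from 69.1, 70.2 and 68.5 CPM to 59.1 and 60.0 CPM, with a narrow spread in both groups. Its log2 fold change was -0.22 ± 0.05 (adjusted p = 0.00598), and the call was kept in 14 of 15 alternative fits (-0.24 to -0.18), all but the test against a fold of 1.2.

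SLC7A3 (CAT3, chromosome X, 70925582 to 70931125, minus strand), a form known from brain and embryonic cells, was near the lower limit of what could be tested. It had 66, 32 and 44 counts in the controls against 78 and 90 with ascorbic acid, or 1.17, 0.842 and 1.27 against 1.61 and 2.10 CPM. Every treated value exceeded every control value. The log2 fold change was 0.75 ± 0.24 (edgeR adjusted p = 0.0370). The call was kept in 7 of 14 alternative fits and ended with DESeq2 (0.131), with the replicate block (0.0579), with cyclic loess scaling (0.156), against a fold of 1.2, and without control replicate 1 (0.0817), control replicate 2 (0.125) or treated replicate 2 (0.301).

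SLC6A9 encodes GlyT1, the sodium- and chloride-coupled glycine importer (chromosome 1, 43991500 to 44031467, minus strand). Its levels were 15.1, 13.7 and 15.6 CPM in the controls against 22.2 and 21.0 CPM with ascorbic acid, with both treated values far above the control range. The log2 fold change was 0.55 ± 0.08 (edgeR adjusted p = 2.42e-05), kept in all 15 alternative fits (0.50 to 0.59). SLC6A9 shares 9.19% of its exon length with CCDC24 on the opposite strand, a gene at 1.02 ± 0.0640 CPM (SD, n = 3) in the controls and 1.75 ± 0.262 CPM (SD, n = 2) with ascorbic acid, which was also called higher (0.78 ± 0.24, adjusted p = 0.0287). How reads in the shared stretch were assigned is not given in the sources, and their part in the result was not tested.

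SLC6A15 (B0AT2, chromosome 12, 84859488 to 84913615, minus strand), a neuronal importer of branched-chain amino acids and proline, was lower, with 170, 163 and 162 CPM against 144 and 153 CPM. The log2 fold change was small, -0.15 ± 0.05 (adjusted p = 0.0312), and the call ended without control replicate 1 (-0.12, 0.152), control replicate 2 (-0.16, 0.0810) or treated replicate 1 (-0.11, 0.218), with library totals (-0.11, 0.132), with cyclic loess scaling (-0.10, 0.183), with the filter of 5 CPM (-0.13, 0.0715) and against a fold of 1.2. The vesicular relative SLC6A17 (0.58 ± 0.34) and SLC6A16 (0.59 ± 0.24, adjusted p = 0.0900) were below 2 CPM in every library and did not pass, although in both the treated values lay above the controls.

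Some members of SLC6 carry GABA, taurine, betaine, creatine or serotonin rather than the common amino acids. Of SLC6A4, SLC6A6, SLC6A8 and SLC6A11, 0 passed in edgeR, DESeq2 or limma-voom, and 0 had an unadjusted p under 0.05 in edgeR. The creatine carrier SLC6A8 had 144, 138 and 147 CPM against 151 and 148 CPM (0.06 ± 0.05), and the taurine carrier SLC6A6 had 50.4, 50.8 and 48.9 CPM against 46.1 and 46.3 CPM (-0.12 ± 0.06). The groups did not overlap in either gene, in opposite directions. SLC6A8 has a near-identical pseudogene, SLC6A10P, listed at 0 to 2 counts. The GABA carrier SLC6A11 (GAT3) had 14.4, 16.6 and 13.2 CPM against 13.1 and 13.4 CPM, and the serotonin carrier SLC6A4 had 3.23 to 3.61 CPM against 3.30 and 3.74 CPM. The betaine carrier SLC6A12 had 5 to 8 counts per library and was not tested.

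The SLC38 family supplies glutamine and other neutral amino acids. Of 8 tested SLC38 genes 1 rose, 0 fell and 7 did not pass in edgeR. DESeq2 called 0 in either direction, limma-voom called 1 higher, and 0 were lower at an unadjusted p under 0.05. SLC38A1 (SNAT1) had 281, 294 and 274 CPM against 255 and 274 CPM (-0.09 ± 0.05, adjusted p = 0.185). SLC38A2 (SNAT2), a carrier that cells raise when amino acids are short, had 264, 276 and 250 CPM against 262.1 and 280.4 CPM, with overlapping groups (0.04 ± 0.05, adjusted p = 0.623).

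The member that rose, SLC38A3 (SNAT3, chromosome 3, 50205246 to 50221486, plus strand), a glutamine carrier of liver, kidney and astrocytes, was scarce. It had 81, 36 and 40 counts in the controls against 98 and 81 with ascorbic acid, or 1.44, 0.947 and 1.16 against 2.02 and 1.89 CPM, without overlap. Its log2 fold change was 0.71 ± 0.23 (edgeR adjusted p = 0.0380). The call was kept in 6 of 14 alternative fits and ended with DESeq2 (0.137), with the replicate block (0.0721), with cyclic loess scaling (0.149), against a fold of 1.2, and without control replicate 2 (0.131), control replicate 3 (0.0564), treated replicate 1 (0.172) or treated replicate 2 (0.101).

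Some members act at the lysosomal membrane, where they release amino acids from the lysosome or report them to mTORC1, and SLC38A9, SLC38A7, SLC36A1 and SLC36A4 did not pass. SLC38A9, the lysosomal arginine sensor, had 31.9 to 33.4 CPM in the controls against 30.2 and 32.5 CPM (-0.06 ± 0.07), and SLC38A7, which exports glutamine from lysosomes, had 0.00 ± 0.08. SLC36A1 (PAT1), a proton-coupled carrier of small neutral amino acids, had 30.6, 33.6 and 32.1 CPM against 29.2 and 33.7 CPM (-0.03 ± 0.07). SLC36A4 had 33.5, 36.9 and 34.4 CPM against 32.3 and 36.3 CPM (-0.03 ± 0.07). In these 4 genes the groups overlapped, and of the 2 SLC36 genes 0 passed in edgeR, DESeq2 or limma-voom or had an unadjusted p under 0.05. SLC38A10 (0.12 ± 0.07) and SLC38A6 (0.23 ± 0.11) also did not pass. SLC38A4 had 6 to 20 counts per library, and SLC38A5, with 4 to 12, was not tested.

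The SLC43 carriers LAT3 and LAT4 let large neutral amino acids cross without an exchange partner, and they moved in opposite directions. SLC43A1 (LAT3, chromosome 11, 57484534 to 57515786, minus strand) had 10.5, 9.74 and 9.70 CPM in the controls against 12.9 and 12.4 CPM with ascorbic acid, which gave 0.34 ± 0.09 on the log2 scale (edgeR adjusted p = 0.0150). SLC43A2 (LAT4, chromosome 17, 1569267 to 1628886, minus strand) had 8.31, 8.76 and 8.90 CPM against 7.01 and 6.55 CPM, a log2 fold change of -0.35 ± 0.11 (adjusted p = 0.0306). The groups of neither gene overlapped. In the controls SLC43A1 and SLC43A2 stood at 3.32 ± 0.156 and 0.989 ± 0.0349 CPM per kb (SD, n = 3).

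The SLC43A1 call was kept in 11 of 15 alternative fits and ended with cyclic loess scaling (0.28, adjusted p = 0.0602), against a fold of 1.2, and without treated replicate 1 (0.31, 0.101) or treated replicate 2 (0.35, 0.0511). The SLC43A2 call was kept in 6 of 15. It ended with DESeq2 (0.0731), library totals (0.0613), the replicate block (0.0691), against a fold of 1.2, and without any 1 of the 5 libraries (-0.40 to -0.31), namely control replicate 1 (0.0567), control replicate 2 (0.0775), control replicate 3 (0.0573), treated replicate 1 (0.0751) and treated replicate 2 (0.166). The third member, SLC43A3, an adenine carrier, had 4 to 14 counts per library and was not tested. It shares 40.3% of its exon length with another annotated gene on its own strand.

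**Figure D3:**
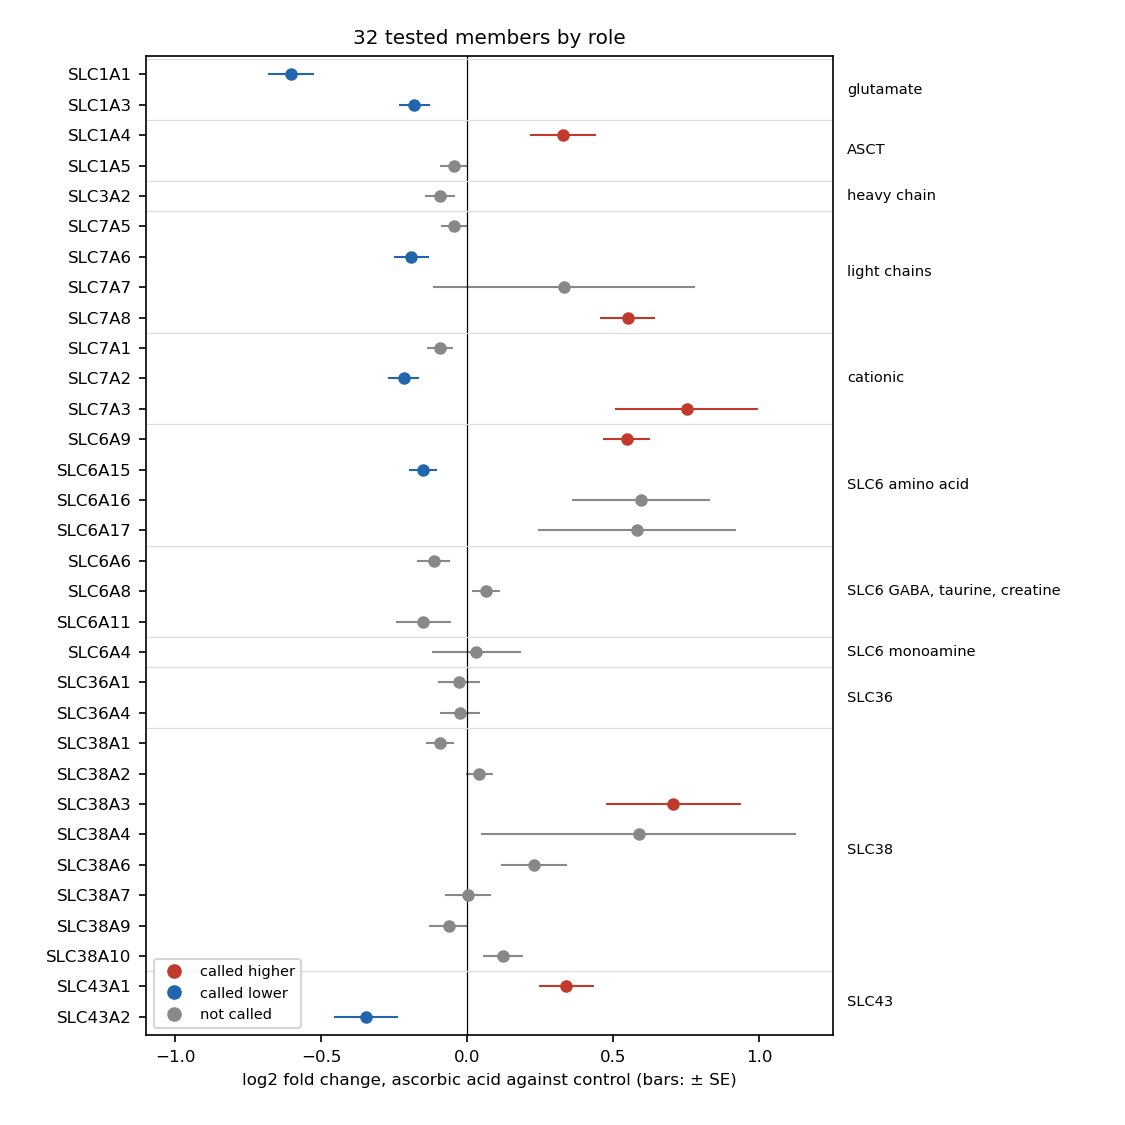
Log2 fold change (ascorbic acid against control) with its SE for 32 of the tested members, grouped by role as written at the right, in red where called higher, blue where called lower and grey where not called. The glutamate carriers SLC1A1 and SLC1A3 are both blue, the SLC43, light chain and cationic groups each hold 1 red and 1 blue gene, and the abundant carriers SLC1A5, SLC3A2, SLC7A5, SLC7A1, SLC38A1 and SLC38A2 all lie between -0.09 and 0.04.

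**Figure D4:**
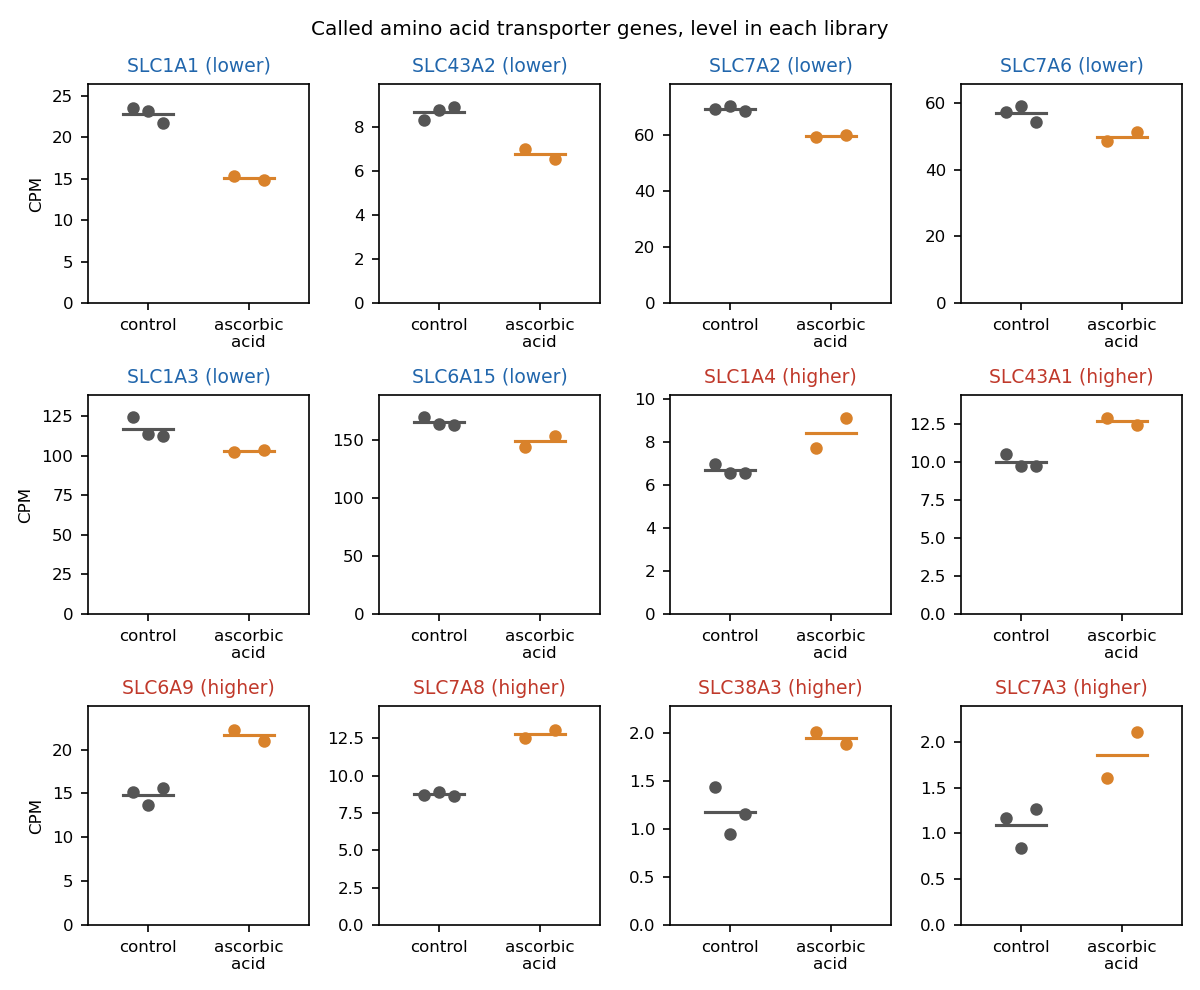
CPM in each library for the 12 called members, each panel with its own axis from 0, controls in grey (3 libraries) and ascorbic acid in orange (2 libraries), lines at the group means. In every panel the groups do not overlap, from SLC1A1 (15.3 and 14.8 against at least 21.7 CPM) to SLC7A3 (1.61 and 2.10 against at most 1.27 CPM). The panels were chosen by the test, so this is not separate support. Among all tested genes the groups did not overlap in 43.1%.

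The promoters of 4 called members are shown because they moved in opposite directions and differ in which motifs they hold, SLC1A1 as the clearest fall, SLC6A9 as the rise with the smallest p, SLC1A4 for its ATF4 type motif and SLC7A6 for its antioxidant type motifs. Sequences are from RefSeq (GRCh38.p14), 5′ to 3′ on the gene's strand, from 250 bases before the annotated start to 30 after it. Capitals mark any match, on either strand, to the amino acid response motif of ATF4 and C/EBP factors (TGATGNAA), the antioxidant response motif (TGACNNNGC), the E-box (CACGTG), the GC box (GGGCGG) or the cyclic AMP response motif (TGACGTCA). The windows are chr9:4490218-4490497 (plus) for SLC1A1, chr1:44031433-44031712 (minus) for SLC6A9, chr2:64989149-64989428 (plus) for 1 of the starts listed for SLC1A4, and chr16:68264276-68264555 (plus) for SLC7A6.
SLC1A1: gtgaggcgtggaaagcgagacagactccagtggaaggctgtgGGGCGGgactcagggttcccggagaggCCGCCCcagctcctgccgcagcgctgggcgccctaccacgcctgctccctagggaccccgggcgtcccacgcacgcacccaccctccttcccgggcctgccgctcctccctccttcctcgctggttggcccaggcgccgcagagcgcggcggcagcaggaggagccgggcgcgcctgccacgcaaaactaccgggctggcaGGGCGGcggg
SLC6A9: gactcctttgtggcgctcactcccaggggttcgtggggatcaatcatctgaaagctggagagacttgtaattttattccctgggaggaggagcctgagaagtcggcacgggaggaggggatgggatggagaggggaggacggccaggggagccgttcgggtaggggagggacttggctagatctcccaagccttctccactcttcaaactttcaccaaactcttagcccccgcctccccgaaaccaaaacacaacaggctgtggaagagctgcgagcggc
SLC1A4: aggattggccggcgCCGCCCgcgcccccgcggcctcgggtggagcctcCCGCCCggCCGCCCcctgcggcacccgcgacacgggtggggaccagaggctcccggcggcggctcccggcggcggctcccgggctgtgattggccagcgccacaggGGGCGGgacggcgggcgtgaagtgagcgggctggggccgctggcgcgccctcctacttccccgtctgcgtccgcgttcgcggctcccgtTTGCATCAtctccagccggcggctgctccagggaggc
SLC7A6: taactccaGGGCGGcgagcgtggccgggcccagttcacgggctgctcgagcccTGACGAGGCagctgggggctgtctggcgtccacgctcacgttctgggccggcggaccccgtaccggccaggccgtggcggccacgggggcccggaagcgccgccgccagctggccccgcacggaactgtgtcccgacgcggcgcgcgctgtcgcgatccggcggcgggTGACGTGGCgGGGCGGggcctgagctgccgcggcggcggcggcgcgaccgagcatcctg

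SLC1A1 held 3 GC boxes and no other motif. The printed stretch of SLC6A9 held none of the motifs, but a GC box lay just past its end, at position 36 from the start. SLC1A4 held 1 ATF4 type match at position -7 from the start and 4 GC boxes, and SLC7A6 held 2 antioxidant type matches, at positions -197 and -29 from the start, and 2 GC boxes. The 300-base windows (250 before to 50 after a start) that were counted covered 28 of the 37 members, 49 windows in all. Any on chromosome 8, where SLC7A2 lies, were left out for the members but kept for all genes. Of 35116 such windows of all genes, 3.62% held the ATF4 type motif, 13.3% the antioxidant motif, 7.26% the E-box, 45.0% the GC box and 1.85% the cyclic AMP motif. These shares are per window, and a member can have several windows, so counts of members cannot be set against them. The ATF4 type motif lay in a window of 6 members, of which 1 rose (SLC1A4), 1 fell (SLC1A3) and 4 did not pass (SLC1A5, SLC3A2, SLC7A1 and SLC38A1). Per window it lay in 1 of 9 of the members that rose, 1 of 8 of those that fell and 4 of 31 of those not called. The antioxidant motif lay in windows of 2 of the 4 members that fell and had a window, of 5 of 19 that did not pass and of 0 of the 4 that rose. Per window this was 2 of 8, 5 of 31 and 0 of 9. A match of letters is not evidence of binding, and nothing in these data measured a factor at these windows.

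The other genes of amino acid supply and sensing came from lists of known genes. In the amino acid response, where the kinase GCN2 and the factor ATF4 act, edgeR called 5 of 20 tested genes higher and 3 lower, with 12 not called and a median log2 fold change of 0.01, beside 8.53% higher and 5.76% lower of all genes tested. In the same list limma-voom called 5 higher and 3 lower, DESeq2 3 and 3, library totals 5 and 1, and cyclic loess scaling 3 and 1. The stress factor NUPR1 rose from 0.711, 0.737 and 0.809 CPM to 1.63 and 2.01 CPM (1.28 ± 0.26, edgeR adjusted p = 0.00114), and the transcription factor ATF3 rose by 0.33 ± 0.07. EIF2S1, the translation factor subunit that GCN2 phosphorylates, fell (-0.22 ± 0.05). The gene of GCN2 itself, EIF2AK4, rose from 76.6, 78.1 and 77.4 CPM to 89.8 and 90.3 CPM (0.22 ± 0.05, edgeR adjusted p = 0.00350). EIF2AK4 was added after its value was seen and was not followed through the alternative fits. Among the 12 genes not called were ASNS, CHAC1, DDIT3 and TRIB3. ATF4 itself, singled out after its value was seen because it acts on many of the transporters, had 628, 601 and 615 CPM in the controls against 575 and 535 CPM with ascorbic acid, a log2 fold change of -0.15 ± 0.05 (adjusted p = 0.0255). That call ended without control replicate 1 (-0.13, 0.105), control replicate 3 (-0.15, 0.0573) or treated replicate 2 (-0.11, 0.189), with library totals (-0.11, 0.0867), with cyclic loess scaling (-0.07, 0.241), with the filter of 5 CPM (-0.12, 0.0545) and against a fold of 1.2.

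In the mTORC1 sensing list 2 of 38 tested genes rose and 0 fell in edgeR, where 4 were higher and 1 lower at an unadjusted p under 0.05. DESeq2 called 0 and limma-voom 2 of them. The called share was 5.26%, against 14.3% of all genes tested. The genes called were MIOS, a subunit of the GATOR2 complex (0.17 ± 0.06), and C12orf66, a subunit of the KICSTOR complex (0.29 ± 0.09). Neither call was kept throughout. MIOS ended without any 1 of the 5 libraries (0.13 to 0.20, adjusted p = 0.0573 to 0.224), C12orf66 without control replicate 2 (0.24, 0.106) or treated replicate 1 (0.18, 0.353), and both ended with DESeq2 and against a fold of 1.2. MIOS ended also with the replicate block (0.17, 0.0603) and, just past the threshold, with DESeq2 size factors, and C12orf66 with cyclic loess scaling (0.25, 0.0833).

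Of 20 tested amino acid carriers of other families 1 rose, 2 fell and 17 did not pass, a called share of 15% that is near the 14.3% of all genes tested. The lysosomal sialic acid and acidic amino acid carrier SLC17A5 rose by 0.26 ± 0.07 (edgeR adjusted p = 0.00822), and the mitochondrial carriers of the sideroflexin family SFXN2 (-0.38 ± 0.07) and SFXN1, which takes serine into mitochondria (-0.14 ± 0.04), fell. The SFXN1 call ended without any 1 of control replicates 1 to 3 or treated replicate 1 (-0.15 to -0.11, 0.0565 to 0.156), under library totals (-0.10, 0.137), cyclic loess scaling (-0.08, 0.271), the filter of 5 CPM (-0.11, 0.0713) and against a fold of 1.2.

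Among 9 tested accessory and turnover genes, SGK1, a kinase that raises the surface level of several carriers, rose from 9.56, 8.97 and 8.69 CPM to 13.7 and 13.8 CPM (0.59 ± 0.09). ARL6IP5, a membrane protein known to bind and restrain the SLC1A1 carrier, fell from 134, 133 and 134 CPM to 121 and 119 CPM (-0.16 ± 0.05, adjusted p = 0.0240), and the other 7 did not pass, a called share of 22.2% against 14.3% of all genes tested. The ARL6IP5 call ended without control replicates 1, 2 or 3 or treated replicate 2 (-0.16 to -0.15, 0.0524 to 0.0862), under library totals (-0.11, 0.103), cyclic loess scaling (-0.11, 0.132), the filter of 5 CPM (-0.13, 0.0545) and against a fold of 1.2.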

How the data were processed

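Counts of reads per gene symbol, raw and not normalized, were deposited by the authors for 5 libraries. The tools named, per the submitters' processing notes, are Trimmomatic 0.39, STAR, featureCounts and DESeq2, and the build is hg38 (GRCh38). Annotation, strand setting and multi-mapping rules: not given in the sources used here. Columns were matched to samples by name (con as control, vc as vitamin C), and 0 columns were left unused.

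Genes were filtered with filterByExpr, scaled by TMM and tested two-sided by quasi-likelihood (glmQLFit, robust, and glmQLFTest; R 4.3.3, edgeR 4.0.16), with Benjamini-Hochberg adjustment over 15271 genes and a threshold of 0.05. Each SE is the absolute log2 fold change over the square root of F. The fit was first tested on simulated data. Between libraries of 1 group, counts varied beyond sampling noise (chi-square per degree of freedom 3.95 to 7.20). Alternatives used DESeq2 1.42.0 and limma 3.58.1, other scalings and filters, halved counts and each library left out. Where 1 treated library was left out, the spread of the lone one was taken from the controls.

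Every called member is named, then members not called among the 15 highest per kilobase, then up to 3 called genes of each list by smallest p. Other members with values, and ATF4, EIF2AK4, ASNS, CHAC1, DDIT3 and TRIB3, were added after values were seen. The results of 1 member are not reported here by name. Members, lists and alternatives were chosen with earlier results of these data known. Motifs and printed promoters were chosen after values were seen. Exon lengths and overlaps are from GENCODE release 29, and promoters from RefSeq.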

Additional observations from a re-analysis of the deposited data

How the results depend on the processing

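EIF2AK4 was not followed through the alternatives. None of the called members, nor of the other called genes named above from the lists, changed direction in any alternative that tested it. Other called genes were not compared in this way. Members not called that took either sign include SLC1A5, SLC38A2, SLC7A5, SLC6A4, SLC36A1, SLC36A4, SLC38A4 and SLC38A7. SLC1A1, SLC6A9 and SLC7A8 kept their calls in all 15, and of 21 members not called only SLC3A2 passed in any, without treated replicate 1. The member calls of every alternative were among the same 12, except that one. The count of 12 called members was 3 against a fold of 1.2, 5 with cyclic loess scaling and 6 to 9 with 1 library left out. Of all genes 2182 were called, against 286 at a fold of 1.2, 1447 with cyclic loess scaling and 1180 to 2047 with 1 library left out, the lowest without control replicate 1. Of 57 amino acid response and sensing genes 10 were called, against 1 at a fold of 1.2, 6 with cyclic loess scaling, 6 with DESeq2 and 5 to 7 with 1 library left out. The cause of these differences was not tested. With the replicate block 8 members were called, 3 higher and 5 lower, and 1880 of all genes. The shared numbers are not known to pair libraries. Deviations of same-numbered libraries correlated at -0.04 and 0.21. With 2 treated libraries the deviation of each is the exact opposite of the other, so these values cannot decide it. The calls of SLC7A3 and SLC38A3, below about 2 CPM, rest on 32 to 98 counts per library and that of NUPR1 on 28 to 86, and DESeq2 gave no adjusted p to 7 of the 37 members, which are not counted as lost calls. No outlier test was run, since groups of 3 and 2 libraries are too small for one.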
